A study of Mus musculus with 15 samples.

Results

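The transcripts of the constitutive proteasome were followed in whole brain across age and diet. Members were the genes whose symbol is Psma, Psmb, Psmc or Psmd with a number, without the inducible subunits Psmb8, Psmb9 and Psmb10 and without pseudogenes, together with the activators Psme1 to Psme4, if they had at least 10 counts over all mice. This gave 40 genes of 43629 listed, of which 26269 had at least 1 count. RNA of whole brains from 15 male wildtype C57BL/6J mice was sequenced, with one library per mouse. Of these mice, 4 were young and fed ad libitum (AL, food always present), 3 were young and fed every other day (EOD, called IF in the labels, with days of free food alternating with days of none), 4 were old AL and 4 were old EOD. The labels give 3 months for the young and 24 months for the old mice. The young EOD mice had been on the diet for a short time before analysis and the old EOD mice for most of their adult life, so that the diet comparison in young mice is also one of a short exposure.

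The proteasome is the barrel-shaped protease that degrades proteins tagged with ubiquitin. Its core particle is built of rings of alpha subunits, which gate the entrance, and rings of beta subunits, 3 of which (Psmb5, Psmb6 and Psmb7) cut the substrate. A regulatory particle with a base of 6 ATPases and a lid recognizes, unfolds and feeds in the tagged protein, and alternative caps, the Psme activators, open the core without this step. In neurons the proteasome is known for its part in synaptic protein turnover and in clearing misfolded proteins. The cell raises many subunit genes together through the transcription factor Nfe2l1 when the proteasome is inhibited.

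The members carried between 0.295% and 0.333% of all counts in each mouse, and total counts ranged from 5198748 to 13610729 per mouse. Young AL mouse 3 stood apart from all other mice. It had the largest total but only 17280 genes with a count, against 19054 to 20880 in the other 14 mice. Among 38 members tested it held the highest or the lowest CPM (counts scaled to a common library total, with TMM factors) of all 15 mice for 17, being highest for 12 and lowest for 5. Its summed CPM of 5 choroid plexus markers was 331, against 458 to 1223 in the other mice, and the part of this difference in the results below was not tested. Old AL mouse 4 had 888 CPM of the pituitary hormone gene Gh, against at most 14.9 CPM elsewhere, and was neither highest nor lowest for any member. All 6 neuronal markers checked were present in every group, with summed CPM between 7261 and 9273 per mouse. The highest sum was that of young AL mouse 3, against at most 8366 in the other mice. Its summed CPM of 5 blood markers was 28.0, against 42.1 to 101 in the other mice. The part of these differences in the results below was not tested either.

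The promoters of the members were searched for the letters of known binding sites, and stretches of a few members are shown as examples. An antioxidant response element core, written TGACNNNGC and searched on both strands, is the kind of site that Nfe2l1 binds. In RefSeq promoter windows on GRCm38.p6, which run from 250 bases before to 50 after the start of transcription, it was found in 6 of the 33 members with a window, or 18.2%, against 14% of all 27025 genes. The share in members was near that of all genes, and shared regulation through this site was not tested. These members were Psmb5, Psmb6, Psmc6, Psmd12, Psmd9 and Psme4. In 3 of them, Psmb5, Psmb6 and Psmd9, the match lies in the sense direction and begins within 50 bases before the start. The stretches that hold it are given 5′ to 3′ on the gene's strand, with the match in capitals.
Psmb5: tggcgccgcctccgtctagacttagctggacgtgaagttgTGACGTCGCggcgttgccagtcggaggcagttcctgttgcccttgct
Psmb6: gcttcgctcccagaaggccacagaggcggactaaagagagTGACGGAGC
Psmd9: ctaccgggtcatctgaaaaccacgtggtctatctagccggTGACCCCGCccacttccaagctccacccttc
They lie at chr14:54617996-54618082 on the minus strand, chr11:70525308-70525356 on the plus strand and chr5:123228119-123228189 on the plus strand. The matches begin 47, 9 and 31 bases before the start of transcription. The repeat of GCGC, then A and any base, then GCGC, the type of site bound by nuclear respiratory factor, was found in 6 of the 33 windows (Psma2, Psma3, Psma4, Psmc4, Psmc5 and Psmd14), which is 18.2% against 5.2% of all genes. The letters CCAAT were found in 13 windows, 39.4% against 41.1%. All genes were not matched to the members on level or base composition. Whether the members differ from similar genes in these shares was not tested. A match in these letters is a description of the sequence and not of binding.

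The level of each member was first compared per length, as TPM, the read count per exon length in the deposited files, scaled to the same sum in every mouse. All 38 members that passed the filter on low counts had a median above 10 TPM over the 15 mice, and their medians ran from 14.97 TPM for Psme2 to 443 TPM for Psmc5, a 29.6-fold range. The median over these members was 109 TPM, at percentile 91.2 among genes with a median above 0. Neighbours in this order were mostly not separated. In 36 of 37 neighbouring pairs the ranges over mice overlapped, and the pair that did not was Psmb1 above Psmb7. The order of this pair depended on the length used. Per kilobase of the principal transcript, a length taken up below, Psmb1 was at 73.2 CPM and Psmb7 at 105.4 CPM. For Psmb1 this transcript has 1758 bases, more than the 1036 exon bases on which its reads were counted. No read could be counted on the added bases, so this length lowers Psmb1.

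**Figure D1:**
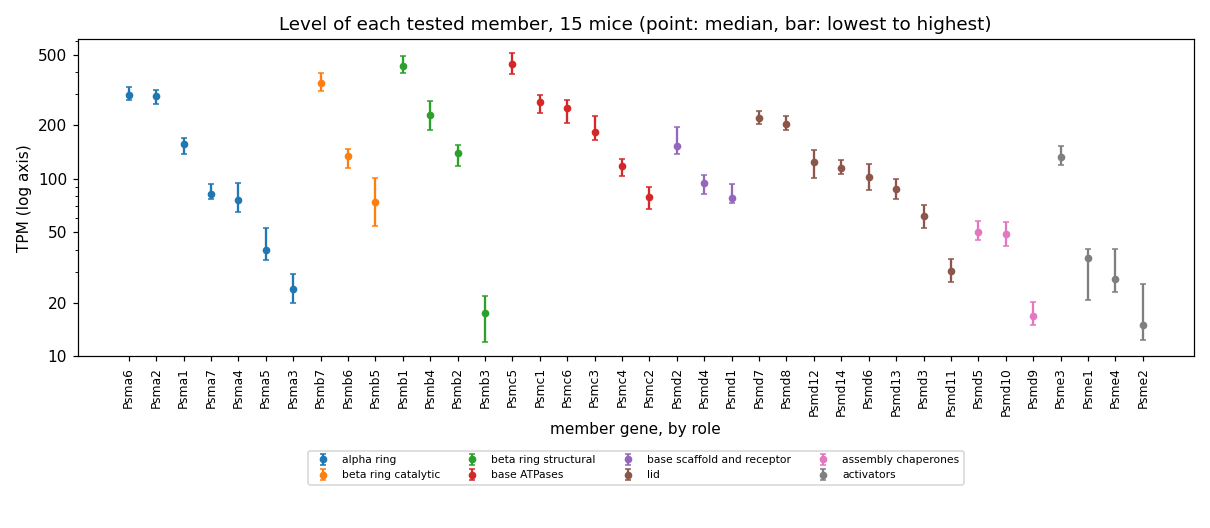
Each point is the median TPM (log axis) of a member over 15 mice, with a bar from the lowest to the highest mouse, and colours mark the role in the complex. Levels differ far more between members, from 14.97 to 443 TPM, than between mice for one member.

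In the core particle, the alpha ring genes had medians from 24.1 TPM for Psma3 to 296 TPM for Psma6. Psma1, Psma2, Psma4, Psma5 and Psma7 lay between them. The catalytic genes were at 348 TPM for Psmb7, which encodes the trypsin-like site, at 134 TPM for Psmb6, the caspase-like site, and at 73.8 TPM for Psmb5, the chymotrypsin-like site. The structural beta genes Psmb1, Psmb4, Psmb2 and Psmb3 had medians of 431, 228, 139 and 17.5 TPM. Each core holds these subunits in equal number, whereas the levels of their messages in these counts were unequal. How unequal they were depended on the length used. Per kilobase of the principal transcript, Psmb7 and Psmb6 were closer, at 105.4 and 90.6 CPM, and Psmb5 was at 21.4. On this length Psmb4, at 75.8 CPM, was not below Psmb1, at 73.2, while Psmb2 and Psmb3 were at 55.8 and 15.4. The value of Psmb1 is lowered by bases outside its counted exons, as given above.

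In the regulatory particle, the ATPase ring spanned 443 TPM for Psmc5 to 78.7 TPM for Psmc2, with Psmc1, Psmc3, Psmc4 and Psmc6 between. Per kilobase of the principal transcript Psmc2 was not the lowest, at 63.7 CPM against 51.4 for Psmc6 and 51.3 for Psmc4. The value of Psmc6 is lowered, since its principal transcript has 2234 bases against 1564 counted exon bases. Of the large base subunits, the scaffolds Psmd2 and Psmd1 were at 154 and 78.03 TPM, and the ubiquitin receptor Psmd4 at 94.8 TPM. The lid ran from 220 TPM for Psmd7 to 30.3 TPM for Psmd11. Psmd14, the lid enzyme that removes ubiquitin from the substrate, was at 115 TPM, and Psmd3, Psmd6, Psmd8, Psmd12 and Psmd13 are its other members. The chaperones that assemble the base, Psmd5, Psmd10 and Psmd9, were lower, at 50.2, 48.6 and 16.8 TPM. Among the activators, Psme3, the nuclear activator, reached 132 TPM. Psme1 and Psme2, which form the interferon-inducible cap together, had 35.8 and 14.97 TPM, and Psme4, the large single-chain activator, 27.2 TPM.

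Psma8, a testis subunit, and Psmb11, a subunit of the thymus, did not pass the filter. Psma8 had 0 to 9 counts per mouse, and Psmb11 had 0 to 8. At these depths their levels could not be compared between groups, and the counts over 38 tested members below leave them out. The DESeq2 fit was run without this filter and holds all 40 members.

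These levels depend on how reads are assigned and on which length is used. The authors counted reads that map uniquely, and for members with processed pseudogenes part of the message cannot be told from the copy. Of the 50-base words in the principal transcript, the read length used, 59.3% were shared with transcripts from other loci for Psme2, 55.8% for Psmb3, 54.5% for Psma5 and 50% for Psmb5, while 21 of the 40 members shared none. On CPM per kilobase of the principal transcript, the 3 members with more than 50% shared words had a median of 12.2, the 28 tested members with 10% or less had a median of 56.9, and the 7 between them had 21.4. Low levels were also seen in members with few or no shared words, such as Psmd9 at 16.8 TPM and Psme4 at 27.2 TPM, and the part of shared words in the levels was not tested.

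The variation between mice was small. The highest mouse exceeded the lowest by a median of 1.32-fold in CPM over the 38 tested members, and by less than 1.5-fold in 32 of them. The narrowest was Psma2, from 72.6 to 86.3 CPM, and the widest Psme2, from 6.27 to 13.2 CPM. The spread within groups, as the SD of log2 CPM, had a median of 0.107 over the members against 0.196 over all 15864 genes tested. These sets were not matched on level, since the median member lay at percentile 91.2 in TPM. Whether the members vary less than other genes of their level was not tested. By group, the median SD was 0.138 in young AL, 0.127 in young AL without mouse 3, 0.072 in young EOD, 0.082 in old AL and 0.094 in old EOD.

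Summed over all members, 5314 ± 200 TPM (SD, n = 4) were found in young AL, 5303 ± 120 TPM (SD, n = 3) in young EOD, 5208 ± 74.1 TPM (SD, n = 4) in AL mice when old and 5378 ± 278 TPM (SD, n = 4) in old EOD mice. The group means differed by less than the spread within old EOD. The ratio of regulatory particle to core particle, as summed TPM, was 1.10 ± 0.0287 (SD, n = 4), 1.117 ± 0.0139 (SD, n = 3), 1.11 ± 0.0219 (SD, n = 4) and 1.11 ± 0.0284 (SD, n = 4) in the same order. All 15 mice lay between 1.07 and 1.15. A bulk measurement cannot tell fewer cells of a type from less RNA per cell.

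The effect of age on each member was then tested in AL mice, with edgeR's quasi-likelihood test over all 15864 genes. None of the 38 tested members differed at FDR under 0.1, a threshold that 173 of all genes passed, or 1.09%. At an unadjusted p under 0.05, 3 members passed (Psme1, higher in old mice, and Psme4 and Psmb5, lower), against 9.52% of all genes, and DESeq2 likewise called 0 members, with 2 of 40 at an unadjusted p under 0.05, against 6.01% of all genes in that fit. Without young AL mouse 3 none of the 38 had an unadjusted p under 0.05, against 7.25% of genes, and without young AL mouse 4 the count was 5, against 13.5%. The log2 fold changes ran from -0.29 to 0.36, with a median of -0.033 against -0.0096 over all genes, and 14 of 38 lay above 0, against 47.6% of all genes. The median was -0.0092 without young AL mouse 3, -0.011 without mouse 2 and -0.056 without mouse 4 of that group. In no member were the old and young AL mice fully separated, as they were in 4.56% of genes. For 37 of 38 members the 95% interval lay inside a 1.5-fold change in either direction, the exception being Psme1.

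In EOD mice the effect of age was tested in the same way. Again 0 of 38 members passed FDR 0.1 in the edgeR test, against 46 genes or 0.29% of all tested, and 1 member had an unadjusted p under 0.05, against 5.74% of genes. DESeq2 called 0 members, with 0 at an unadjusted p under 0.05, against 3.45% of genes. The median log2 fold change was 0.046 and 28 of 38 lay above 0, against 49.9% of all genes. It fell to 0.020 with 23 of 38 above 0 without old EOD mouse 4, to 0.023 without old EOD mouse 1 and to 0.030 with 23 above 0 without young EOD mouse 1. The 95% intervals of 36 members lay inside 1.5-fold, and those of Psme1 and Psme2 reached outside it. In 2 members, Psme1 and Psmd9, all old EOD mice lay above all young EOD mice, or 2 of 38 separated in either direction, against 9.04% of all genes.

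**Figure D2:**
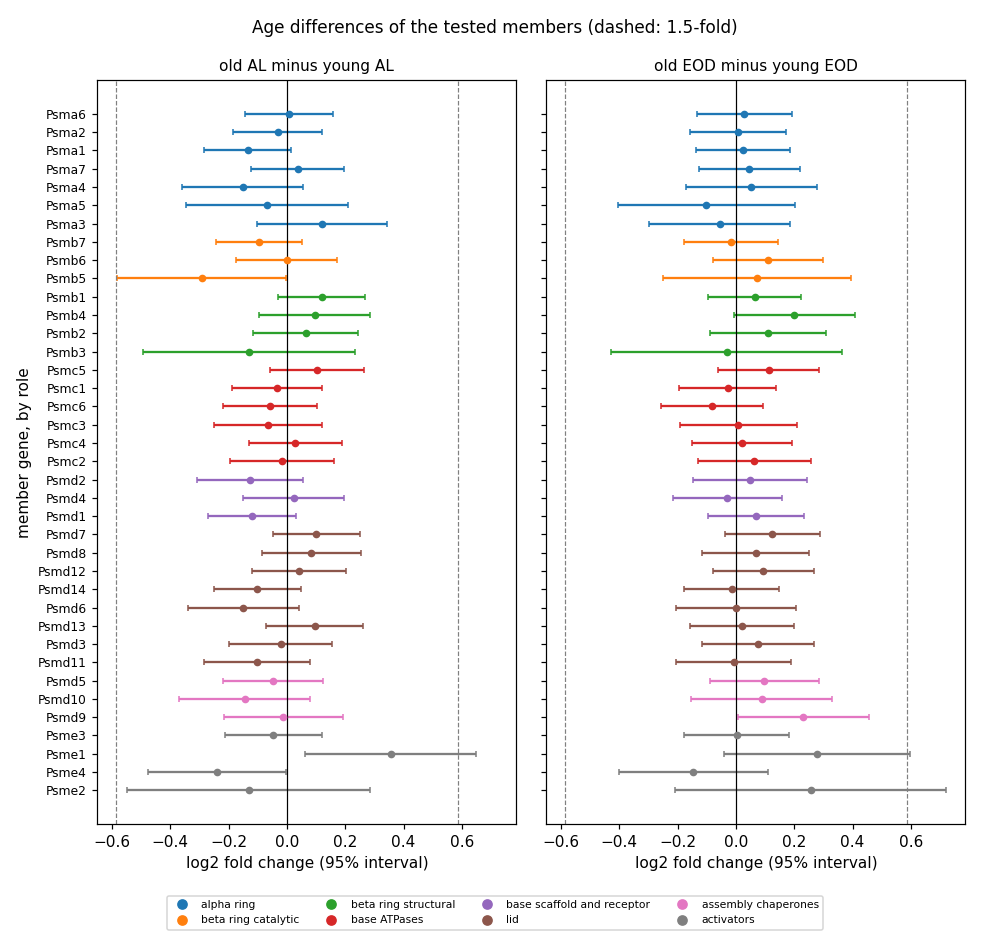
Points are log2 fold changes (old minus young) of the 38 tested members from the edgeR fit in AL mice (left) and EOD mice (right), with 95% intervals, and the dashed lines mark a 1.5-fold change. Nearly all intervals lie inside the dashed lines and cross 0, and the widest belong to Psme1, Psme2, Psmb3 and Psmb5.

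The direction of the differences was counted by role. In AL mice 3 of the 7 alpha ring genes tested, 3 of 4 structural beta genes, 0 of 3 catalytic genes, 2 of 6 ATPases, 1 of 3 scaffold and receptor genes, 4 of 8 lid genes, 0 of 3 assembly chaperones and 1 of 4 activators had a log2 fold change above 0. In EOD mice the same counts were 5, 3, 2, 4, 2, 6, 3 and 3. These are signs of differences that did not pass the test for any single member.

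The smallest p with age in AL mice was that of Psme1 (chr14:55578123-55581529, GRCm38), which encodes the alpha subunit of the interferon-inducible cap. Its CPM was 21.1, 18.0, 13.3 and 22.1 in young AL mice 1 to 4, and 26.0, 19.4, 25.0 and 24.5 in old AL mice. Young EOD mice had 17.2, 20.1 and 22.9 CPM, and old EOD mice 24.0, 25.7, 23.8 and 23.7. Old AL mouse 2 fell among the young AL mice, and young AL mouse 3 was the lowest of all 15, whereas the EOD groups did not overlap. The log2 fold change was 0.36 in AL mice (SE 0.141, unadjusted p = 0.0199 and FDR 0.393 in the edgeR test) and 0.28 in EOD mice (SE 0.153, unadjusted p = 0.0836 and FDR 0.931). Without young AL mouse 3 the values became 0.22 (SE 0.121, FDR 0.772) in AL and 0.28 (SE 0.122, FDR 0.553) in EOD mice, so the size in AL mice depended on that mouse. The difference between the diets in this age effect was -0.08 on the log2 scale (FDR 0.9998 in the edgeR test).

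Psme2 (chr14:55587441-55591113) encodes its partner in the cap and had the lowest median TPM of the tested members. Its CPM was 6.51, 8.61, 13.2 and 6.27 in young AL mice and 8.46, 7.61, 7.94 and 7.90 in old AL mice. In EOD mice it was 7.19, 7.39 and 6.31 when young and 8.46, 8.65, 9.21 and 6.93 when old. The highest mouse was again young AL mouse 3, and all groups overlapped. The age difference was -0.13 (SE 0.200) in AL and 0.26 (SE 0.223) in EOD mice on the log2 scale, with FDR 0.884 and 0.991 in the edgeR test, and without that mouse the value in AL mice was 0.16. The ratio of Psme1 to Psme2 in TPM was 0.803 in young AL mouse 3 and 1.67 to 2.89 in the other mice.

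Psme4 (chr11:30771726-30880361) was lower in old AL than in young AL mice on average. It had 76.0, 66.5, 98.9 and 62.0 CPM in young AL mice and 68.8, 65.6, 63.0 and 60.1 CPM in old AL mice. The EOD mice had 71.7, 69.8 and 69.1 CPM when young and 64.8, 55.8, 70.4 and 62.4 CPM when old. Only young AL mouse 3 lay far above the rest, and the groups overlapped. The log2 fold change in AL mice was -0.24 (SE 0.113, unadjusted p = 0.0473 and FDR 0.524 in the edgeR test) and -0.08 (SE 0.0909) without that mouse. Psme3 (chr11:101316213-101323537) had 114 ± 11.9 CPM (SD, n = 4) in young AL, 114 ± 7.89 CPM (SD, n = 3) in young EOD, 110.2 ± 7.83 CPM (SD, n = 4) in old AL and 114 ± 5.28 CPM (SD, n = 4) in old EOD mice. Its log2 fold changes with age were -0.05 (SE 0.0802, FDR 0.901 in the edgeR test) in AL and 0.00 (SE 0.0868, FDR 0.998) in EOD mice, and its groups overlapped.

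Of the catalytic genes, Psmb5 (chr14:54614120-54617995) varied most. Its CPM was 17.5, 25.6, 25.5 and 22.8 in young AL mice, 19.2, 13.4 and 19.98 in young EOD mice, 17.3, 17.3, 21.4 and 19.2 in old AL mice, and 21.1, 17.8, 18.8 and 16.6 in old EOD mice. The 3 highest values were in young AL mice and the lowest in young EOD mouse 2, but young AL mouse 1 lay within every other group. The log2 fold change was -0.29 with age in AL mice (SE 0.139, unadjusted p = 0.0483, FDR 0.525 in the edgeR test) and -0.38 with EOD in young mice (SE 0.153, unadjusted p = 0.0228, FDR 0.996). In old mice the diet difference was -0.01. Without young AL mouse 3 the first 2 values were -0.23 and -0.32. Psmb5 shares 50% of its words with transcripts of other loci, and it was measured at 13.4 to 25.6 CPM. Psmb6 (chr11:70525367-70527858) had 73.2 ± 7.93 CPM (SD, n = 4) in young AL, 67.8 ± 4.01 CPM (SD, n = 3) in young EOD, 73.1 ± 3.90 CPM (SD, n = 4) in old AL and 73.4 ± 3.92 CPM (SD, n = 4) in old EOD mice. Psmb7 (chr2:38588036-38644087) had 129 ± 10.8 CPM (SD, n = 4), 124 ± 2.52 CPM (SD, n = 3), 121 ± 1.95 CPM (SD, n = 4) and 122 ± 8.82 CPM (SD, n = 4) in the same order. Their age differences on the log2 scale were 0.00 (SE 0.0837) and -0.10 (SE 0.0714) in AL mice and 0.11 (SE 0.0911) and -0.02 (SE 0.0774) in EOD mice, and both genes overlapped between all groups compared.

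**Figure D3:**
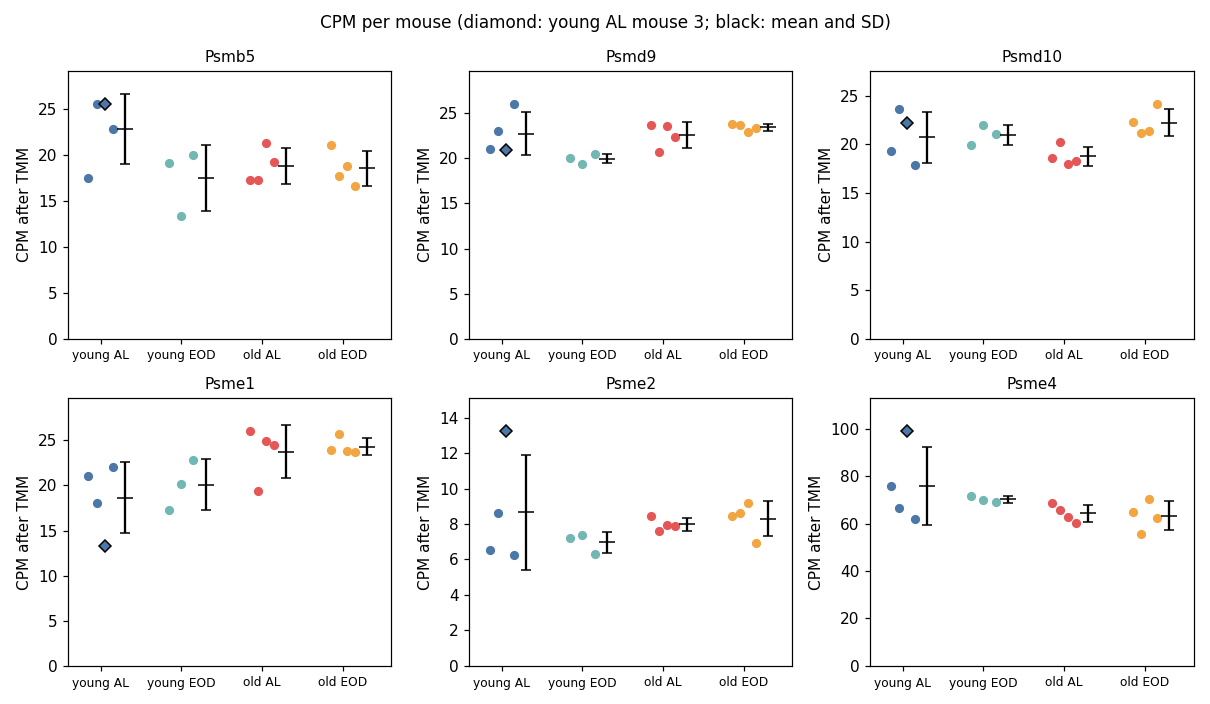
CPM of 6 members in each mouse by group, with the mean and SD in black and young AL mouse 3 as a diamond. That mouse is the lowest for Psme1 (13.3 CPM) and the highest for Psme2 (13.2 CPM) and Psme4 (98.9 CPM), while Psmd9 in young EOD and Psmd10 in old EOD mice sit apart from the group they are compared with.

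Psmd9 (chr5:123228190-123250131), a chaperone of base assembly, had the smallest p with age in EOD mice. It had 20.02, 19.4 and 20.5 CPM in young EOD mice and 23.9, 23.7, 22.9 and 23.4 CPM in old EOD mice. Young AL mice had 21.1, 23.0, 20.9 and 26.0 CPM and old AL mice 23.7, 20.7, 23.6 and 22.4 CPM. The 3 young EOD mice were thus the lowest of all 15, overlapping neither the young AL nor the old EOD mice. The log2 fold change was 0.23 with age in EOD mice (SE 0.108, unadjusted p = 0.0452, FDR 0.865 in the edgeR test) and -0.19 with EOD in young mice (SE 0.108, unadjusted p = 0.0966, FDR 0.996). In AL mice the age difference was -0.01. The difference between the age effects was 0.24 (SE 0.146, FDR 0.9998 in the edgeR test).

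Other members named by their p with age were smaller still. Psma1 (chr7:114264606-114276118) averaged 98.6 ± 4.46 CPM (SD, n = 4) in young AL and 89.6 ± 6.57 CPM (SD, n = 4) in old AL mice, and its log2 fold change was -0.13 with FDR 0.575 in the edgeR test. In EOD mice Psmb4 (chr3:94884093-94886961) had 85.2 ± 10.4 CPM (SD, n = 3) when young and 97.7 ± 9.49 CPM (SD, n = 4) when old, a log2 fold change of 0.20 (SE 0.0995, FDR 0.883). In EOD mice Psma1 had 96.1 ± 4.78 CPM (SD, n = 3) when young and 97.6 ± 4.47 CPM (SD, n = 4) when old. The lid gene Psmd7 (chr8:107580381-107588482) had 99.5 ± 6.05 CPM (SD, n = 4) in young AL, 96.8 ± 4.39 CPM (SD, n = 3) in young EOD, 107 ± 4.68 CPM (SD, n = 4) in old AL and 106 ± 7.04 CPM (SD, n = 4) in old EOD mice, and its log2 fold changes with age were 0.10 (SE 0.0717, FDR 0.699) and 0.12 (SE 0.078, with no pass of FDR 0.1 in the edgeR test).

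The genes with the highest and the lowest median TPM of each role were compared by group mean. In the alpha ring, Psma6 (chr12:55384222-55418454) had 105 ± 9.95 CPM (SD, n = 4) in young AL, 110.5 ± 5.24 CPM (SD, n = 3) in young EOD, 105 ± 2.68 CPM (SD, n = 4) in old AL and 113 ± 4.93 CPM (SD, n = 4) in old EOD mice. In the same order of groups, Psma3 (chr12:70974621-70996347) had 26.4 ± 2.65, 28.1 ± 3.66, 28.8 ± 2.74 and 26.96 ± 1.66 CPM (SD). Among the structural beta genes, Psmb1 (chr17:15475721-15498276) had 123 ± 6.98, 131 ± 9.31, 133 ± 6.89 and 137 ± 8.53 CPM. The groups compared overlapped for each of these 3 genes. Psmb3 (chr11:97703399-97713500), the structural gene with the lowest level, had 11.8 ± 2.93, 11.99 ± 2.07, 10.9 ± 1.40 and 11.6 ± 1.48 CPM.

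In the ATPase ring, Psmc5 (chr11:106256154-106263120) had 169.6 ± 16.5, 178 ± 8.19, 182 ± 9.66 and 192 ± 16.05 CPM (SD, n = 4, 3, 4 and 4) in that order of groups. Psmc2 (chr5:21785283-21803787) had 115 ± 10.01, 113 ± 5.09, 113 ± 10.3 and 118 ± 11.6 CPM. The scaffold gene Psmd2 (chr16:20651652-20663414) had 188 ± 30.5, 179 ± 3.37, 173 ± 8.53 and 185 ± 10.7 CPM. The SD of Psmd2 in young AL mice was the largest of the 4 groups, and young AL mouse 3 had the highest value of that gene. For the lid gene Psmd11 (chr11:80428615-80473248) the means were 58.4 ± 6.25, 53.2 ± 3.93, 54.6 ± 2.99 and 52.9 ± 2.55 CPM, and for the chaperone Psmd5 (chr2:34852088-34874968) they were 55.2 ± 1.71, 53.7 ± 0.333, 53.4 ± 4.20 and 57.5 ± 5.19 CPM. None of these 9 genes was separated between groups by age or by diet.

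The effect of EOD was tested in young and in old mice. In neither age did any member or any gene pass FDR 0.1 in the edgeR test, so 0% of genes were called in both, and DESeq2 called 0 members in both. In young mice 1 member (Psmb5, lower) had an unadjusted p under 0.05, against 4.14% of genes, and DESeq2 had 1 of 40, against 2.51%. In old mice 1 member (Psmd10, higher) did, against 2.58%, and DESeq2 had 1, against 1.62%. The median log2 fold change was -0.038 in young and 0.046 in old mice, with 13 and 28 of 38 members above 0, against 49.2% and 50.8% of all genes. In young mice the sign of the median rested on young AL mouse 3, since without it the median was 0.016 with 21 of 38 above 0. It was -0.0094 without young AL mouse 2 and -0.014 without young EOD mouse 1. In old mice the median was 0.027 without old AL mouse 1, 0.029 without old AL mouse 2 and 0.031, with 22 of 38 above 0, without old EOD mouse 4. The 95% intervals of all 38 members lay inside 1.5-fold in old mice, and those of 36 did in young mice, where Psme2 and Psmb5 reached outside.

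**Figure D4:**
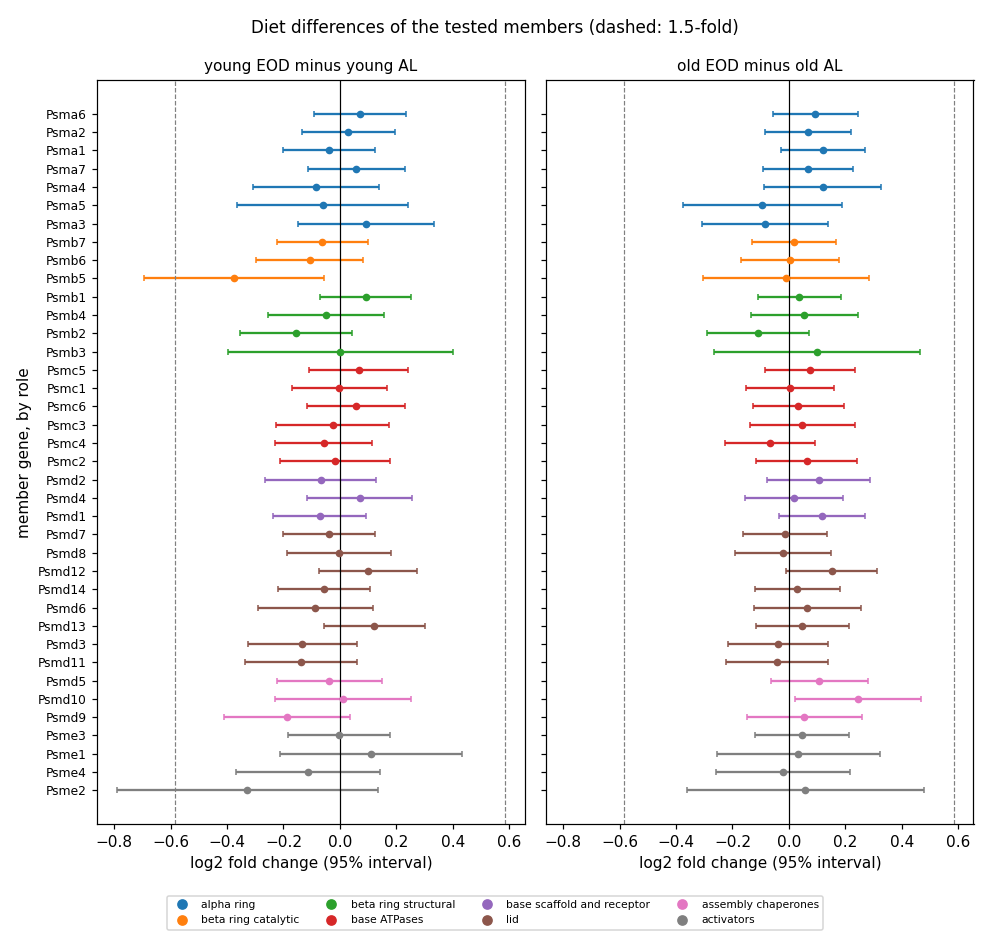
Points are log2 fold changes (EOD minus AL) of the 38 tested members in young mice (left) and old mice (right) from the edgeR fit, with 95% intervals, and the dashed lines mark a 1.5-fold change. In old mice every interval lies inside the dashed lines, and in young mice those of Psmb5 and Psme2 extend beyond the lower line.

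Psmd10 (chrX:140948429-140956728), another chaperone of the base, also known as gankyrin, had the smallest p for diet in old mice. It had 18.7, 20.2, 18.0 and 18.3 CPM in old AL mice and 22.4, 21.2, 21.4 and 24.1 CPM in old EOD mice. In young mice it had 19.3, 23.6, 22.2 and 17.9 CPM under AL and 19.9, 22.01 and 21.03 CPM under EOD. The old groups did not overlap, while young AL mice spanned nearly the whole range. The log2 fold change in old mice was 0.24 (SE 0.108, unadjusted p = 0.0341, FDR 0.9999 in the edgeR test), and in young mice it was 0.01. It was the single member whose old groups were separated in either direction, or 1 of 38 against 2.59% of all genes. Psmd12 of the lid (chr11:107479484-107504362) averaged 91.0 ± 5.18 CPM (SD, n = 4) under AL and 101 ± 7.07 CPM (SD, n = 4) under EOD in old mice, a log2 fold change of 0.15 (SE 0.0773, FDR 0.9999). Psmd1 (chr1:86064387-86139151), a scaffold of the base, had 165, 158, 155 and 159 CPM in old AL mice and 177, 161, 169 and 186 CPM in old EOD mice. In young mice it had 174, 156, 199 and 163 CPM under AL and 168, 164 and 163 CPM under EOD. The groups overlapped, and young AL mouse 3 was again the highest of all. In old mice the log2 fold change was 0.12 for Psmd1 (SE 0.0732, FDR 0.9999 in the edgeR test) and also 0.12 for Psma1.

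Among young mice, the members with separated groups were Psmd9, lower under EOD, and Psmd13 of the lid (chr7:140881968-140898643), which had 76.5, 84.2, 84.0 and 74.9 CPM under AL and 88.2, 84.4 and 88.2 CPM under EOD. The gap for Psmd13 was narrow, with the lowest EOD mouse just above the highest AL mouse, and the log2 fold change was 0.12 (FDR 0.996 in the edgeR test). Separation upward or downward was seen in 2 of 38 members, against 4.45% of genes. Psmb2 (chr4:126677630-126709714), a structural beta gene, had 45.1, 55.1, 46.8 and 47.9 CPM in young AL and 47.5, 41.3 and 42.05 CPM in young EOD mice, with overlap, and its log2 fold change was -0.16 (SE 0.095, FDR 0.996). In old mice it had 51.03 ± 2.50 CPM (SD, n = 4) under AL and 47.2 ± 3.19 CPM (SD, n = 4) under EOD. For Psme2 the value was -0.33 in young mice, and -0.04 without young AL mouse 3.

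Whether EOD altered the effect of age was tested as an interaction. No member passed FDR 0.1 in the edgeR test, as did no gene (0%), no member passed an unadjusted p under 0.05, against 2.28% of genes, and DESeq2 gave 0 members for both, against 0 and 1.4% of genes. The median over members was 0.076 against 0.0063 for all genes, and 29 of 38 were above 0, against 51.5% of all genes. This term takes the young AL mice with a positive sign, and leaving out single mice moved the median between 0.035, without old EOD mouse 4, and 0.088, without old EOD mouse 3. Without young AL mouse 3, young AL mouse 2 or young EOD mouse 1 it was 0.041, 0.047 and 0.048. The members with the smallest p were Psmd1 (0.19, SE 0.108), Psmb5 (0.36, SE 0.208), Psmd9 (0.24, SE 0.146) and Psma1 (0.16, SE 0.106). For 35 of 38 members the interval of the interaction lay inside 1.5-fold, and Psme2, Psmb5 and Psmb3 were the exceptions. The comparisons share groups with one another, so their values are set side by side here and are not independent.

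The inducible catalytic subunits, which replace Psmb5, Psmb6 and Psmb7 in the immunoproteasome and are no members, were set beside the members. They do not show what size of change could be found in the members. With age in AL mice the SE was 0.289 for Psmb8, against a median of 0.083 over the tested members. Psmb8, the counterpart of Psmb5, had 1.57, 2.38, 1.06 and 3.01 CPM in young AL and 3.61, 4.33, 5.86 and 3.70 CPM in old AL mice. Young EOD mice had 2.57, 2.24 and 2.63 CPM and old EOD mice 4.27, 5.01, 4.33 and 3.46 CPM. Every old mouse lay above every young mouse. Old and young mice were separated in 4.56% of all genes in AL and 9.04% in EOD mice. The share for both diets together was not computed. The log2 fold change with age was 1.09 in AL mice (SE 0.289, unadjusted p = 0.00111, FDR 0.101 in the edgeR test) and 0.77 in EOD mice (SE 0.315, FDR 0.782). It missed the threshold in the edgeR test and passed it in DESeq2, with FDR 0.0478, and without young AL mouse 3 it was 0.85 with FDR 0.191 in the edgeR test. The diet difference was 0.31 in young and -0.01 in old mice, with FDR 0.996 and 0.9999, and the interaction was -0.32 (SE 0.427, FDR 0.9998).

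Relative to Psmb5, the level of Psmb8 in TPM was 2.83% ± 1.18 (SD, n = 4) in young AL, 4.58% ± 0.626 (SD, n = 3) in young EOD, 7.36% ± 1.20 (SD, n = 4) in AL mice when old and 7.35% ± 1.16 (SD, n = 4) in old EOD mice. By mouse it was 1.32% to 5.31% in the young and 6.12% to 8.98% in the old mice, so that the ages did not overlap. Psmb5 shares 50% of its words with other loci, so its counts may be too low and these percentages too high. The highest levels of Psmb5 were in young AL mice, which lowers the percentage in that group. Psmb9 relative to Psmb6 was 0.666% ± 0.230 (SD, n = 4), 1.118% ± 0.246 (SD, n = 3), 1.30% ± 0.377 (SD, n = 4) and 1.43% ± 0.445 (SD, n = 4) in the same order of groups, with overlap between ages. Psmb10 relative to Psmb7 was 14.7% ± 0.528 (SD, n = 4), 14.7% ± 1.75 (SD, n = 3), 18.0% ± 3.46 (SD, n = 4) and 14.03% ± 2.47 (SD, n = 4), and all groups overlapped. By CPM, Psmb9 differed by 0.93 on the log2 scale with age in AL mice (SE 0.400, unadjusted p = 0.02996, FDR 0.456 in the edgeR test), at 0.453 to 2.23 CPM in these mice, and by 0.67 without young AL mouse 3. Its age difference in EOD mice was 0.41 (FDR 0.995). Psmb10 differed by -0.34 with EOD in old mice (SE 0.128, unadjusted p = 0.0137, FDR 0.9999 in the edgeR test), from 18.5, 20.3, 27.8 and 23.96 CPM under AL to 16.8, 19.1, 19.6 and 15.6 CPM under EOD, with overlap. Its age differences were 0.18 in AL and -0.10 in EOD mice. The summed CPM of 5 microglial markers (Cx3cr1, P2ry12, Csf1r, Aif1 and Tmem119, none at 0) was 195 to 208 in young AL, 193 to 199 in young EOD, 218 to 232 in old AL and 210 to 242 in old EOD mice, so that every old mouse lay above every young mouse. None of the 5 passed FDR 0.1 with age in the edgeR test in either diet, while an unadjusted p under 0.05 was reached by 1 in AL and 3 in EOD mice, against 9.52% and 5.74% of all genes. The part of this in the Psmb8 values was not tested.

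**Figure D5:**
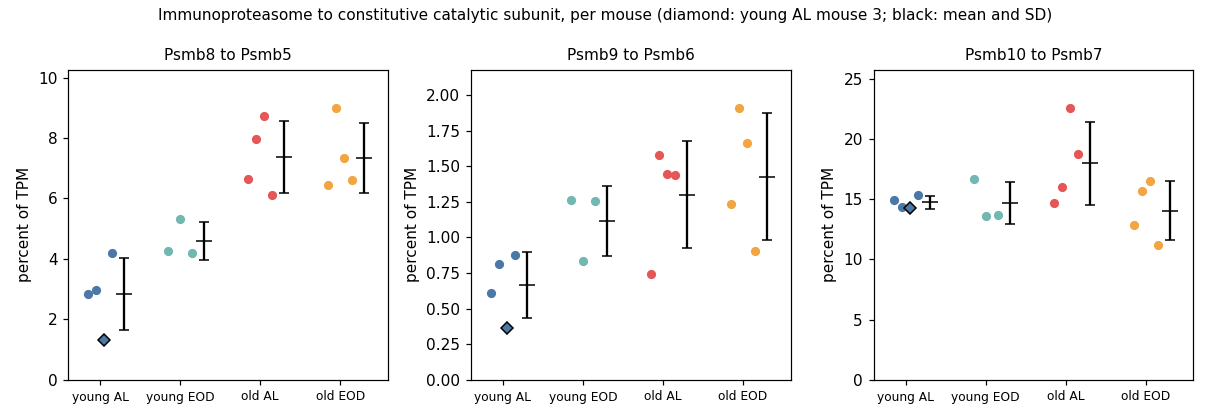
TPM of each inducible catalytic subunit as a percentage of the TPM of the constitutive subunit it replaces, in each mouse by group, with the mean and SD in black and young AL mouse 3 as a diamond. For Psmb8 to Psmb5 every old mouse (6.12% to 8.98%) lies above every young mouse (1.32% to 5.31%), while Psmb9 to Psmb6 and Psmb10 to Psmb7 overlap between ages.

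The other genes of the pathway were taken from lists of assembly factors, associated proteins and the Nfe2l1 response. No gene of these 3 lists passed FDR 0.1 in any comparison in the edgeR test. With age in AL mice, an unadjusted p under 0.05 was reached by 0 of 6 tested assembly factors, 0 of 14 associated proteins and receptors and 1 of 7 genes of the Nfe2l1 pathway. In EOD mice the counts were 1, 0 and 0. The shares over all genes were 9.52% in AL and 5.74% in EOD mice. Nfe2l1 itself, the factor that raises subunit genes, was at 362 to 430 CPM in all mice, with age differences of 0.02 and 0.03 and diet differences of -0.04 and -0.03 on the log2 scale.

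The genes behind these counts were few. Nfe2l2, the oxidative stress regulator related to Nfe2l1, was at 15.6 to 20.6 CPM in young AL and 21.3 to 30.5 CPM in old AL mice. These groups did not overlap, as in 4.56% of all genes, and the lowest value was that of young AL mouse 3. Nfe2l2 differed by 0.43 on the log2 scale with age in AL mice (SE 0.141, FDR 0.257 in the edgeR test). In EOD mice its age difference was 0.10. Psmg3, a chaperone of core assembly with 2.87 to 8.54 CPM over all mice, differed by -0.58 with age in EOD mice (SE 0.234, FDR 0.782) and by 0.30 in AL mice, and its interaction was -0.88 (SE 0.320, FDR 0.9998). Young AL mouse 3 had the lowest value, and without it the age difference in AL mice was 0.09 and the interaction -0.67 (FDR 0.9999). Pomp, the maturation factor of the core, had age differences of -0.05 in AL and 0.05 in EOD mice on the log2 scale.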

How the data were processed

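Whole-brain RNA of 15 mice was sequenced as 50-base single-end reads. After trimming, the authors placed the reads on the GRCm38 genome using STAR. Per the file headers, featureCounts 1.5.0-p1 then counted primary alignments for the genes of Ensembl release 79 (minimum mapping quality 5, reverse-stranded). The deposited values are raw counts per gene. Samples were grouped by the labels, and CPM, TPM and all tests were computed here.

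All genes passing edgeR's filterByExpr (15864) entered one model of the 4 group means (R 4.3.3, edgeR 4.0.16), scaled by TMM and tested by quasi-likelihood, with Benjamini-Hochberg FDR under 0.1. Intervals at 95% came from this fit. Reads were assigned by strand, so that the 8 members with an exon overlapped by a gene on the other strand are separated from it, while Psmd1 and Psmb5 overlap a gene on the same strand. TPM used the exon length in the files. Shared words were counted against GENCODE M21 transcripts of other loci. Symbols came from Ensembl identifiers for 42462 genes.

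The members and lists were chosen with earlier results of these data known. The text names every member and gives CPM by mouse or by group for the 4 with the smallest p in each of the 5 comparisons, the catalytic and activator genes, and the highest and lowest of each role. Psmd13 was added because its groups did not overlap, and other genes come from the lists. Some genes of the lists are not reported here. Alternatives were no filter, a minimum of 10 counts per mouse, RLE or library-size scaling, DESeq2 1.42.0, FDR 0.05, a replicate block, lane as a covariate, fits of 2 groups alone and the removal of each mouse in turn. The length of the principal transcript and leaving out 2 mice together were chosen after seeing the data. The steps were tested on simulated counts. The 21 pairs of replicate mice differed by more than sampling noise (chi-square per degree of freedom 3.14 to 17.2). The p-values of the main fit rest on the spread between mice within groups. This spread is 1 estimate per gene, shared by the 4 groups and drawn toward that of other genes. The median SD of the members differed by group, from 0.072 in young EOD to 0.138 in young AL mice. Total counts limit precision most for the members below about 10 CPM.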

Additional observations from a re-analysis of the deposited data

Results flagged for a closer look

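Among 108 groups of values tested for a mouse far from the others, 3 were flagged, and chance flags about 1 in 20. In old EOD mice, Psmb11 was at 0.737 CPM in mouse 3 and at 0 to 0.0962 CPM in the others, which is 8 counts against at most 1. Psme1 in old EOD mice was at 25.7 CPM in mouse 2, against 23.7 to 24.0 CPM in the others. In old AL mice the summed level of the 3 catalytic genes was 533 TPM in mouse 1, against 549 to 551 TPM in the others. None of the 3 was in young AL mouse 3.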

How the results depend on the processing

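No member passed FDR 0.1 in any comparison under any alternative, the stricter FDR of 0.05, no filter, RLE size factors, library size alone, DESeq2 and lane as a covariate included. Without the filter and in DESeq2 all 40 members entered, and without young EOD mouse 3 there were 39. Leaving out each mouse in turn gave 0 called members throughout, and the median log2 fold change of the members ranged from -0.056 to -0.0092 with age in AL mice, from 0.020 to 0.068 with age in EOD mice, from -0.057 to 0.016 with diet in young mice, from 0.027 to 0.053 with diet in old mice and from 0.035 to 0.088 for the interaction. Among the runs that left out 1 mouse, the value of 0.016 was the single one above 0 for diet in young mice and came without young AL mouse 3. Replicate numbers showed no pairing of the mice. Same-numbered mice of different groups had a mean correlation of -0.0266 over 21 pairs (-0.113 to 0.113), and other-numbered mice 0.0087 over 63 pairs (-0.148 to 0.200). Since these correlations run over all genes within small groups, they cannot exclude a pairing. With a replicate block 0 members were called, and the medians were -0.031, 0.048, -0.033, 0.042 and 0.067 in the same order. Within lanes the members' median age difference in AL mice was -0.046, -0.10 and 0.053 in lanes 1, 2 and 3, with 1 or 2 mice per group, so its sign was not the same in every lane. In EOD mice it was 0.091 and -0.0015 in lanes 1 and 2. The diet difference was -0.056 and -0.060 in young mice in these lanes and 0.058, 0.020 and 0.036 in old mice in the 3 lanes. With the length of the principal transcript, chosen after seeing the data, the order of levels changed. Psma2 moved from rank 5 to 27, Psma7 from 23 to 6 and Psmb6 from 15 to 4 of 38, while Psmc5 stayed highest and Psme2 lowest. Psmb1 moved from 2 to 10, below Psmb7, which moved from 3 to 2. Psmc2 moved from 24 to 12 and was no longer the lowest ATPase. Psmb4 instead of Psmb1 was the highest structural beta gene, and Psmd10 instead of Psmd5 the highest assembly chaperone. For some members the principal transcript was longer than the exons counted. It had 2911 against 944 bases for Psma2, 1758 against 1036 for Psmb1 and 4397 against 3750 for Psmd5. No read could be counted on the added bases, so this length lowers these genes, and the part of this in the changes of order was not tested. The range over the tested members was 16.7-fold, against 29.6-fold on the exon length in the files.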
